A study of Arabidopsis thaliana with 14 samples.

Results

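The 10 genes described here belong to the salicylic acid pathway of Arabidopsis thaliana and were chosen by gene ID: SID2 (AT1G74710), PAD4 (AT3G52430), EDS1 (AT3G48090), EDS5 (AT4G39030), SARD1 (AT1G73805), CBP60g (AT5G26920), FMO1 (AT1G19250), PR1 (AT2G14610), PR2 (AT3G57260) and PR5 (AT1G75040). They are 10 of the 33602 genes listed in every library, and all 10 passed the filter on low values. RNA sequencing was done on whole seedlings grown for 14 days under long days, all in the Col-0 background. There were 3 libraries each of hda6-6, hda5-1 and hda9-1, 1 library each of fve-4 and fld-6, and 3 libraries of the Col wild type, 14 in all. No library came from plants treated with a pathogen or with salicylic acid, as far as the labels state.

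hda6-6 (also called axe1-5) has a point mutation at a splice site of HDA6, a histone deacetylase of the RPD3 type. hda5-1 and hda9-1 carry mutations in HDA5 and HDA9, other deacetylases of that type, and the nature of these 2 alleles is not given in the sources used here. In fve-4 a single-base change gives a premature stop codon in FVE, while fld-6 carries a T-DNA in FLD, in the second exon. FVE is a WD-repeat protein and FLD a homolog of a human histone demethylase, and both act in the autonomous flowering pathway. Each mutant was 1 allele. The methods call the replicates of hda6-6 and Col biological. For hda5-1 and hda9-1 the sources used here do not say whether replicates were grown apart, so p-values there rest on library-to-library variation that may be technical. HDA6 was called lower in hda6-6 (log2 fold change -1.46), HDA5 in hda5-1 (-1.59), HDA9 in hda9-1 (-2.94) and FVE in fve-4 (-6.05), whereas FLD had a log2 fold change of -0.06 in fld-6, so transcript level does not check that label.

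Salicylic acid is the hormone that plants make when they resist pathogens that feed on living tissue. Most of it comes from isochorismate, which the enzyme SID2 (also called ICS1) makes in the chloroplast and which EDS5 carries out into the cytosol. EDS1 and PAD4 form a pair of lipase-like proteins that pass on signals from immune receptors and raise salicylic acid. SARD1 and CBP60g are related transcription factors that bind the SID2 promoter. FMO1 makes N-hydroxypipecolic acid, the signal of systemic acquired resistance. PR1, PR2 and PR5 encode secreted defense proteins and serve as the usual readouts of the pathway, PR2 being a beta-1,3-glucanase and PR5 a thaumatin-like protein.

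Upstream sequences are shown for SARD1 and EDS1, which were called in hda5-1 under every alternative tried, and for SID2 and FMO1, which hold the GAAATTT motif described for SARD1 and CBP60g. Each is 250 bases up to the RefSeq gene start, read 5′ to 3′ on the strand of the gene from the TAIR10.1 assembly. SARD1 is at chr1:27744790-27749248 on the minus strand, and its window is chr1:27749249-27749498. EDS1 is at chr3:17755329-17758147 on the minus strand, with the window chr3:17758148-17758397. SID2 is at chr1:28070295-28074177 on the plus strand, with the window chr1:28070045-28070294. FMO1 is at chr1:6650476-6653195 on the minus strand, with the window chr1:6653196-6653445. Capitals mark the W-box core TTGAC on either strand in SARD1 and EDS1, the core of the sites bound by WRKY factors, and GAAATTT on either strand in SID2 and FMO1, the core of the sites described for SARD1 and CBP60g.
SARD1: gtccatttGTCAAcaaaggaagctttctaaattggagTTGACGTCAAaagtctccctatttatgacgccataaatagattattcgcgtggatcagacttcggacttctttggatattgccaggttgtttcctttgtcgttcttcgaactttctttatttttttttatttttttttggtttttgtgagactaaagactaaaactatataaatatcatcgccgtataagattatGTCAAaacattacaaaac
EDS1: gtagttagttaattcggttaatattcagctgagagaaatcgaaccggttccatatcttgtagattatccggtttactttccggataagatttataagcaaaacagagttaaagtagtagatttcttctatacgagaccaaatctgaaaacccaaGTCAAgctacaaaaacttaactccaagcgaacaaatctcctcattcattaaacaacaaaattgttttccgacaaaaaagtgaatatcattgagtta
SID2: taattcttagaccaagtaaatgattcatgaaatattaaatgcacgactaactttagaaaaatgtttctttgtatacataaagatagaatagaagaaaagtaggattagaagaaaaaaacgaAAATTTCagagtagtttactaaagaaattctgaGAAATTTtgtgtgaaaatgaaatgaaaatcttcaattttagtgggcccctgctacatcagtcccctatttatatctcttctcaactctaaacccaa
FMO1: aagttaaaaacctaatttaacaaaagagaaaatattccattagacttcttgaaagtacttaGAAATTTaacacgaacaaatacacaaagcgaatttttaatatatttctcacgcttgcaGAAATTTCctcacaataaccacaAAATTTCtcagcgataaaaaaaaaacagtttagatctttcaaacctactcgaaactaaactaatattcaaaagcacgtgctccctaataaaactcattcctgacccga

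The SARD1 window held 4 W-box cores, with their first bases 242, 213, 208 and 18 bases upstream of the gene start. Those at 213 and 208 abut on opposite strands and overlap 2 of the 3 copies of TGACG (the core bound by TGA factors, either strand) in that window. EDS1 held 1 W-box core, at 96 bases, EDS5 held 2, and PR1 and PR5 held 1 each. Thus 5 of 10 members had a W-box core, and so did 44.9% of the 27443 windows of nuclear protein-coding genes. GAAATTT stood at 129 and 96 bases in SID2 and at 189, 131, 130 and 108 bases in FMO1, the copies at 131 and 130 overlapping on opposite strands. It was in 2 of 10 members and in 12.5% of all windows. TGACG was in 1 of 10 members and in 18.6% of all windows. CGCG, the core of CAMTA sites, was in SARD1 and PR5 and in 10.1% of all windows. The windows of PAD4 (chr3:19430845-19431094), CBP60g (chr5:9475429-9475678) and PR2 (chr3:21189968-21190217) held none of these 4 motifs. These are matches of letters and not binding data.

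Expression is given as RPKM, read numbers scaled to transcript length and to the mapped reads of the library, as the authors computed it. The steps between low values put the depth at 17838000 to 25528000 mapped reads per library. Libraries of 1 genotype correlated at r = 0.972 to 0.986 across genes (12 pairs), and libraries of different genotypes at 0.907 to 0.971 (79 pairs). In whole seedlings, fewer cells that express a gene and less RNA per cell cannot be told apart. Photosynthesis markers summed to 53130 to 82750 RPKM over the libraries, while 5 flower markers summed to 2.27 to 8.27 RPKM. The sum of 5 root markers was 284 to 316 RPKM in hda5-1, against 520 to 685 RPKM in Col. BGLU21, BGLU22 and MLP328 made up most of it, and each was below Col in every hda5-1 library. LAC7 went the other way, at 11.1 to 18.0 RPKM in hda5-1 against 7.63 to 10.3 RPKM in Col, and AT1G12080 overlapped Col. The sum of 5 senescence markers was 672 to 708 RPKM in hda6-6, 667 to 699 in hda5-1, 469 to 727 in hda9-1, 1276 in fve-4, and 724 in fld-6, against 316 to 498 RPKM in Col. In fve-4 SEN1 made up 1075 RPKM of that sum. SAG21 was at 259 to 338 RPKM in hda6-6, 365 to 427 in hda5-1 and 178 to 254 in hda9-1, against 75.7 to 125 RPKM in Col. Of the 5 markers, 2 had a positive log2 fold change in hda6-6, 3 in hda5-1 and 5 in hda9-1. SAG12, the defining senescence marker, was at or under 0.223 RPKM in every library. The part of these marker differences in the results below was not tested.

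Some replicates stood apart from their genotype in the pathway. Against the mean of its genotype on the log2 scale, the members' median deviation was -0.46 in hda9-1 replicate 2, 0.33 in hda9-1 replicate 3, -0.33 in hda5-1 replicate 3, 0.30 in Col replicate 2 and -0.36 in Col replicate 3, whereas the median over all genes tested was between -0.05 and 0.07 in every library of these genotypes. That median stays near 0 where rises and falls balance, so it cannot show whether other genes moved too. hda9-1 replicate 2 was the lowest of its genotype for 9 of 10 members, all but PR5, and hda9-1 replicate 3 was the highest for 7. Col replicate 2 was the highest of the Col libraries for 8 of 10 members, all but EDS1 and FMO1, and Col replicate 3 was the lowest for 8. A list of 13 other genes that respond to salicylic acid had median deviations of 0.51, -0.80 and 0.28 in hda9-1 replicates 1, 2 and 3. They were -0.25 in hda5-1 replicate 3, 0.91 in Col replicate 2 and -0.82 in Col replicate 3. For that list hda9-1 replicate 1, and not replicate 3, was the highest of its genotype, for all 13 genes. Of 10 jasmonate and ethylene defense genes, hda9-1 replicate 2 was lowest for 8 and hda9-1 replicate 3 highest for 6. Col replicate 2 was highest there for 9 and Col replicate 3 lowest for 6, while hda5-1 replicate 3 was lowest for 2. In hda9-1 and Col the pattern was thus also seen in these jasmonate and ethylene genes. The share of all genes for which each library was highest or lowest was not worked out. Calls of the 10 members that change without these libraries are given beside each result. The other genes named were not refitted without single libraries.

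**Figure D1:**
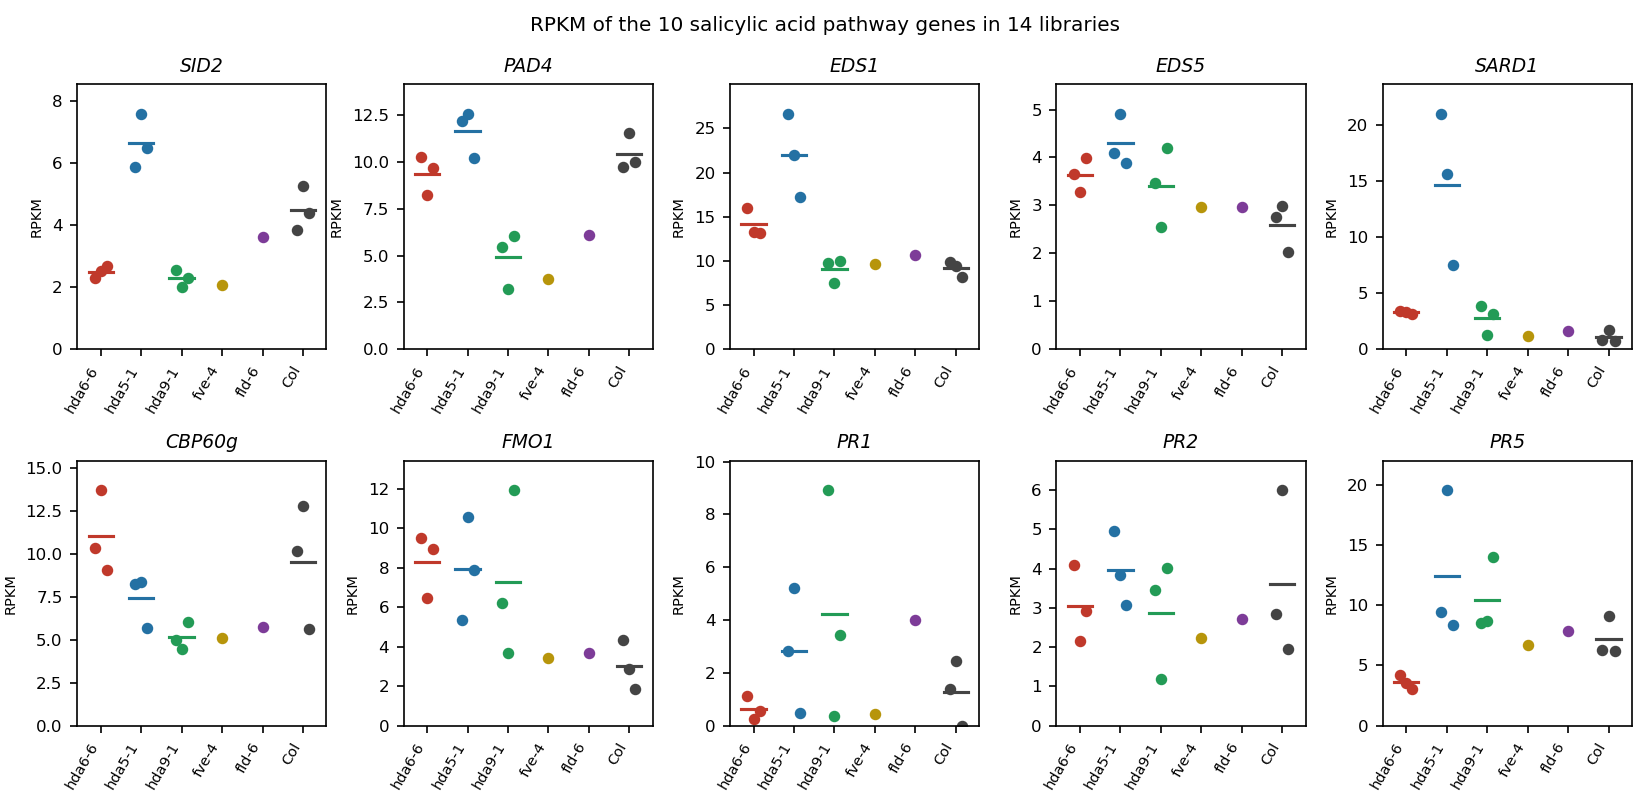
RPKM of the 10 salicylic acid pathway genes in each of the 14 libraries (points) by genotype, mutants to the left of Col, with the mean of 3 libraries as a bar; each panel has its own axis from 0. The 3 hda5-1 libraries lie between 7.47 and 21.0 RPKM for SARD1, above all other libraries, and the PR1 points spread widely within genotypes.

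Differences were tested with limma on log2(RPKM + 0.1) over 23187 genes, and a gene was called where the Benjamini-Hochberg adjusted p was under 0.05 and the change at least 2-fold. Fold changes are on that scale, and for genes near 0 they can be larger or smaller than the change in mean RPKM. For PR1 the fold was 5.66 in fld-6 and 0.895 in hda6-6, against ratios of mean RPKM of 3.13 and 0.497. In hda6-6, 2 of 10 members were called higher than in Col, against 7.95% of all genes, and 0 were called lower, against 4.96%. In hda5-1, 3 of 10 were called higher, against 5.51% of all genes, and 0 lower, against 3.94%. In hda9-1, 0 were called higher, against 2.1% of all genes, and PAD4 was called lower, against 3.75%. In fve-4, 0 were called higher, against 3.9%, and SID2 and PAD4 were called lower, against 3.98% of all genes. In fld-6, 0 were called in either direction, against 0.677% higher and 1.13% lower over all genes. In fld-6, PAD4 was the only member with an unadjusted limma p under 0.05, and its adjusted p was 0.194 (limma). The median log2 fold change of the 10 members was 0.07 in hda6-6, 0.71 in hda5-1, 0.17 in hda9-1, -0.24 in fve-4 and 0.18 in fld-6. Over all genes tested it was 0.05, 0.04, 0.08, 0.19 and 0.02 in the same order of mutants. The 5 comparisons share the 3 Col libraries and are not independent. fve-4 and fld-6 have no spread of their own, so the spread of the other 4 genotypes was applied to each.

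**Figure D2:**
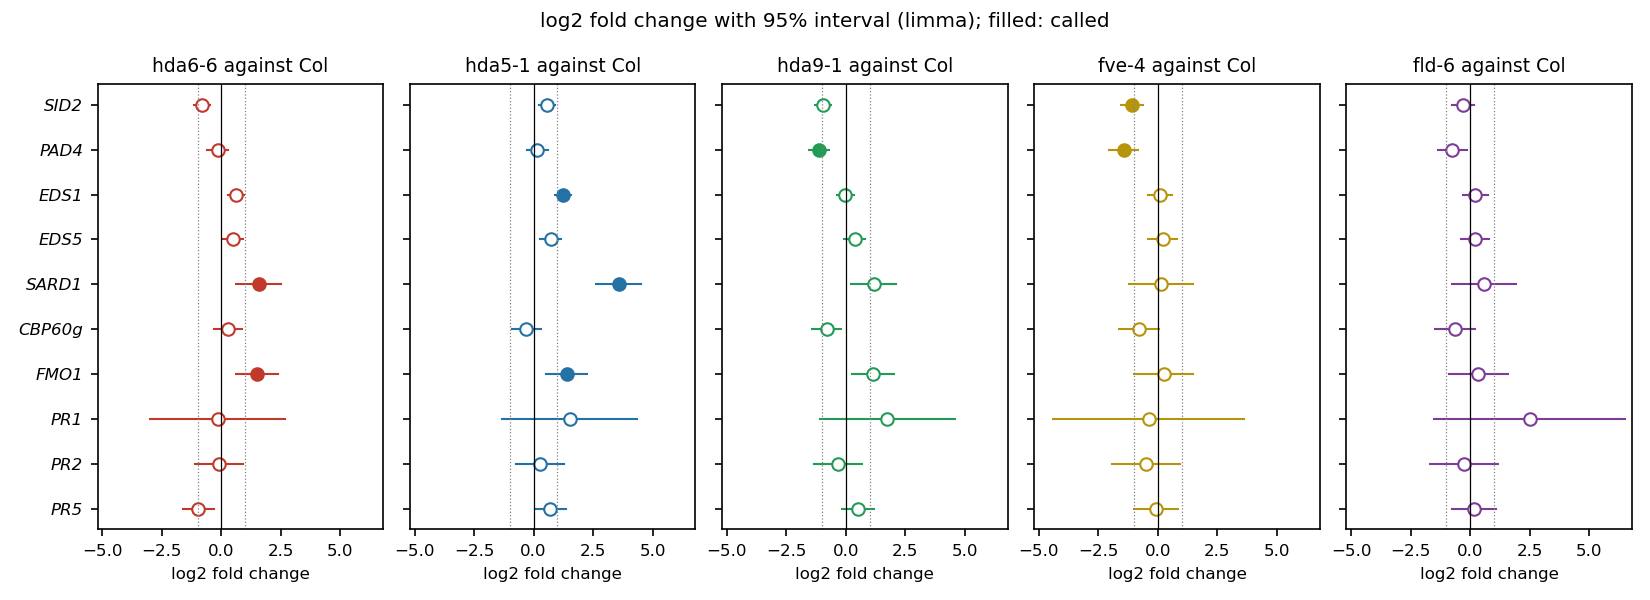
log2 fold change of each member against Col in the 5 mutants (points) with the 95% interval from limma (lines); filled points were called, and dotted lines mark a 2-fold change. SARD1 in hda5-1 has the largest change, 3.57, and the PR1 intervals span 0 in every mutant.

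The synthesis enzyme SID2 separated the genotypes with little spread. It had 2.30, 2.52 and 2.67 RPKM in hda6-6, 5.86, 7.58 and 6.48 RPKM in hda5-1, 2.55, 2.00 and 2.28 RPKM in hda9-1, 2.05 RPKM in fve-4 and 3.61 RPKM in fld-6, against 3.83, 5.26 and 4.38 RPKM in Col. Every hda5-1 library lay above Col, every library of the other 4 mutants lay below Col, and hda9-1 overlapped both hda6-6 and fve-4 at the low end. In fve-4, SID2 fell by 1.08 on the log2 scale (SE 0.22; adjusted p = 0.00517, limma), to 0.473 of the Col level. This call was lost without Col replicate 2 (log2 fold change -0.96) with a pseudocount of 1 (-0.84) and with the replicate number as a block (-1.0, rounded), where the change was under 2-fold. The differences in hda9-1 (log2 fold change -0.94, SE 0.15, adjusted p = 0.00105), hda6-6 (-0.81, SE 0.15, adjusted p = 0.00158) and hda5-1 (0.56, SE 0.15, adjusted p = 0.0184, limma) passed the p threshold but not the 2-fold threshold. After scaling the libraries by a median of ratios or a trimmed mean, SID2 in hda9-1 passed both, at -1.04 and -1.02. It also passed both without hda9-1 replicate 1 (-1.02) or without Col replicate 1 (-1.05).

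EDS5, which exports isochorismate from the chloroplast, varied little. It had 3.66, 3.27 and 3.98 RPKM in hda6-6, 4.09, 4.91 and 3.88 RPKM in hda5-1, 3.46, 2.55 and 4.19 RPKM in hda9-1, 2.97 RPKM in fve-4 and 2.96 RPKM in fld-6, against 2.75, 2.99 and 2.04 RPKM in Col. The hda6-6 and hda5-1 libraries lay above all Col libraries, and the other mutants overlapped Col. Its largest difference was in hda5-1 (log2 fold change 0.72, SE 0.20, adjusted p = 0.0173, limma), short of 2-fold. EDS5 shares 213 bases with AT4G39040 on the other strand, a gene at 41.6 to 64.1 RPKM, and whether the counting used strand is not given in the sources used here.

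Of the signaling pair, EDS1 was called higher in hda5-1, where PAD4 was not called, and PAD4 was called lower in hda9-1 and fve-4, where EDS1 was not called. EDS1 had 15.9, 13.2 and 13.2 RPKM in hda6-6, 26.6, 22.0 and 17.3 RPKM in hda5-1, 9.78, 7.50 and 9.97 RPKM in hda9-1, 9.59 RPKM in fve-4 and 10.7 RPKM in fld-6, against 9.89, 9.42 and 8.18 RPKM in Col. The hda5-1 libraries were the highest, those of hda6-6 came next without overlap, and hda9-1 and fve-4 overlapped Col. EDS1 rose 2.35-fold in hda5-1 (log2 fold change 1.23, SE 0.16, adjusted p = 0.000163, limma) and kept the call under all 25 alternatives, between 1.08 and 1.40. In hda6-6 the difference was 0.62 (SE 0.16, adjusted p = 0.0124), short of 2-fold. EDS1B (AT3G48080), a near copy that lies next to EDS1 on chromosome 3, was at 0.905 to 4.75 RPKM over the libraries. It rose in hda6-6 (log2 fold change 1.18, adjusted p = 0.00168) and in hda5-1 (1.34, adjusted p = 0.000895, limma). Only 0.98% of the 50-base words of the EDS1 exons occur more than once in the genome, and how reads that fit both were assigned is not given in the sources used here.

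PAD4 had 10.2, 8.23 and 9.65 RPKM in hda6-6, 12.2, 12.6 and 10.2 RPKM in hda5-1, 5.47, 3.21 and 6.02 RPKM in hda9-1, 3.77 RPKM in fve-4 and 6.12 RPKM in fld-6, against 9.75, 11.6 and 10.01 RPKM in Col. The hda6-6 and hda5-1 libraries overlapped Col, whereas every library of hda9-1, fve-4 and fld-6 lay below it. PAD4 fell by 1.44 on the log2 scale in fve-4 (SE 0.28, adjusted p = 0.00443) and by 1.12 in hda9-1 (SE 0.20, adjusted p = 0.00179, limma). The fve-4 call held under all 23 alternatives, between -1.64 and -1.26. The hda9-1 call was lost without hda9-1 replicate 2, the lowest library (log2 fold change -0.85), and with a pseudocount of 1 (-0.99). In fld-6 the difference was -0.76 (SE 0.28, adjusted p = 0.194, limma).

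The transcription factor SARD1 showed the largest change of any member. It had 3.40, 3.33 and 3.10 RPKM in hda6-6, 21.0, 15.6 and 7.47 RPKM in hda5-1, 3.84, 1.27 and 3.15 RPKM in hda9-1, 1.14 RPKM in fve-4 and 1.61 RPKM in fld-6, against 0.85, 1.72 and 0.76 RPKM in Col. All hda5-1 libraries exceeded every other library, the hda6-6 libraries lay close together above Col, and hda9-1, fve-4 and fld-6 overlapped Col. SARD1 rose 11.9-fold in hda5-1 (log2 fold change 3.57, SE 0.44, adjusted p = 8.62e-05, limma) and kept the call under all 25 alternatives, between 2.81 and 3.99. It rose 2.95-fold in hda6-6 (1.56, SE 0.44, adjusted p = 0.0158), but this call was lost without Col replicate 1 (1.43, adjusted p = 0.0549) or Col replicate 3 (1.36, adjusted p = 0.0614, limma). In hda9-1 the difference was 1.18 (SE 0.44, adjusted p = 0.0672). It became a call without hda9-1 replicate 2 (1.64, adjusted p = 0.015), without Col replicate 2 (1.52, adjusted p = 0.036) and without hda5-1 replicate 3 (1.18, adjusted p = 0.0437, limma). In RefSeq, SARD1 shares 640 bases with GIP2 (AT1G73790) on the other strand. The steps between the SARD1 values fitted a length of 1691 bases, against 2397 exon bases in RefSeq. The overlap in the authors' gene models may therefore differ. GIP2 was at 20.5 to 22.0 RPKM in hda5-1, against 9.61 to 12.7 RPKM in Col, and the part of the overlap in either value was not tested.

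CBP60g, the close relative of SARD1, was called in no comparison with Col. It had 10.4, 13.7 and 9.04 RPKM in hda6-6, 8.27, 8.33 and 5.71 RPKM in hda5-1, 4.995, 4.44 and 6.02 RPKM in hda9-1, 5.11 RPKM in fve-4 and 5.73 RPKM in fld-6, against 10.2, 12.8 and 5.63 RPKM in Col. Every mutant overlapped Col except fve-4, and Col replicate 3 alone made the overlap with hda5-1, hda9-1 and fld-6. The nearest to a call was hda9-1 (log2 fold change -0.81, SE 0.27, adjusted p = 0.0485, limma), which was short of 2-fold with all libraries and reached -1.14 (adjusted p = 0.00542) without Col replicate 3. Without that library CBP60g was also called in fve-4 (-1.14, adjusted p = 0.0249, limma). In hda5-1 the difference was -0.30 (SE 0.27). Of the other 6 genes of the CBP60 family, CBP60f rose in hda6-6 (1.53, adjusted p = 0.00528), CBP60d fell by 1.09 on the log2 scale in hda5-1, and CBP60a, CBP60b, CBP60c and CBP60e were not called against Col.

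FMO1, the enzyme of systemic resistance, was called higher in hda6-6 and hda5-1. It had 9.51, 6.48 and 8.92 RPKM in hda6-6, 5.34, 10.6 and 7.89 RPKM in hda5-1, 6.22, 3.67 and 11.9 RPKM in hda9-1, 3.41 RPKM in fve-4 and 3.66 RPKM in fld-6, against 4.33, 2.86 and 1.87 RPKM in Col. All hda6-6 and hda5-1 libraries lay above Col, and hda9-1, fve-4 and fld-6 overlapped it. FMO1 rose 2.80-fold in hda6-6 (log2 fold change 1.49, SE 0.40, adjusted p = 0.0135) and 2.62-fold in hda5-1 (1.39, SE 0.40, adjusted p = 0.0237, limma). The hda6-6 call was lost without Col replicate 3 (1.2, adjusted p = 0.0587). The hda5-1 call was lost without hda5-1 replicate 2 (1.16, adjusted p = 0.0889), hda5-1 replicate 3 (1.36, adjusted p = 0.0623), Col replicate 2 (1.39, adjusted p = 0.0562) or Col replicate 3 (1.09, adjusted p = 0.0972, limma). In hda9-1 the difference was 1.16 (SE 0.40, adjusted p = 0.0549). It became a call without hda9-1 replicate 2 (1.56, adjusted p = 0.0154) or Col replicate 1 (1.45, adjusted p = 0.0372, limma).

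Of the readout genes, none was called against Col in any mutant. PR1, the most used of them, had 1.11, 0.245 and 0.554 RPKM in hda6-6, 2.83, 5.20 and 0.460 RPKM in hda5-1, 8.91, 0.345 and 3.44 RPKM in hda9-1, 0.451 RPKM in fve-4 and 3.99 RPKM in fld-6, against 1.40, 2.43 and 0 RPKM in Col. Every genotype with 3 libraries overlapped every other, and the highest and the lowest of the values above 0 were in hda9-1 and hda6-6. The steps between the PR1 values put them at 4 to 20 reads in hda6-6, 8 to 101 reads in hda5-1, 5 to 121 reads in hda9-1, 8 reads in fve-4 and 77 reads in fld-6, against 0 to 40 reads in Col. These estimates used a length of 761 bases, chosen as the one at which most values came out whole. At that length all 14 values were whole within 0.05 of a read plus 0.1% of the reads. Since the length was chosen for this, it does not check the estimates. The spread of PR1 within genotypes was 1.93 on the log2 scale, against a median of 0.181 for all tested genes with a mean RPKM of at least 1, and 0.176 for SID2. Its log2 fold changes against Col were between -0.39 (fve-4) and 2.50 (fld-6), with SE of 1.30 for the mutants with 3 libraries and 1.84 for those with 1, and none was called. In hda5-1 the estimate was 1.51 with a 95% interval of -1.33 to 4.34, so a large difference in either direction could not be detected in these libraries.

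PR2 was at 2.16 to 4.10 RPKM in hda6-6, 3.08 to 4.96 in hda5-1, 1.18 to 4.01 in hda9-1, 2.23 in fve-4 and 2.71 in fld-6, against 1.95 to 6.00 RPKM in Col. All mutants overlapped Col, and the log2 fold changes lay between -0.52 (fve-4) and 0.26 (hda5-1) with no call. The lowest value was hda9-1 replicate 2 and the highest was Col replicate 2.

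PR5 had its lowest level in hda6-6. It had 4.20, 3.56 and 3.05 RPKM in hda6-6, 9.41, 19.5 and 8.38 RPKM in hda5-1, 8.51, 8.67 and 14.0 RPKM in hda9-1, 6.69 RPKM in fve-4 and 7.84 RPKM in fld-6, against 6.28, 9.11 and 6.19 RPKM in Col. The hda6-6 libraries lay below all others, and all other mutants overlapped Col. The difference of hda6-6 from Col was -0.97 (SE 0.30, adjusted p = 0.0267, limma), short of 2-fold. It passed 2-fold under 4 alternatives: without hda6-6 replicate 1 (-1.08), without Col replicate 1 (-1.05), without Col replicate 3 (-1.06) and with trimmed-mean scaling (-1.01).

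**Figure D3:**
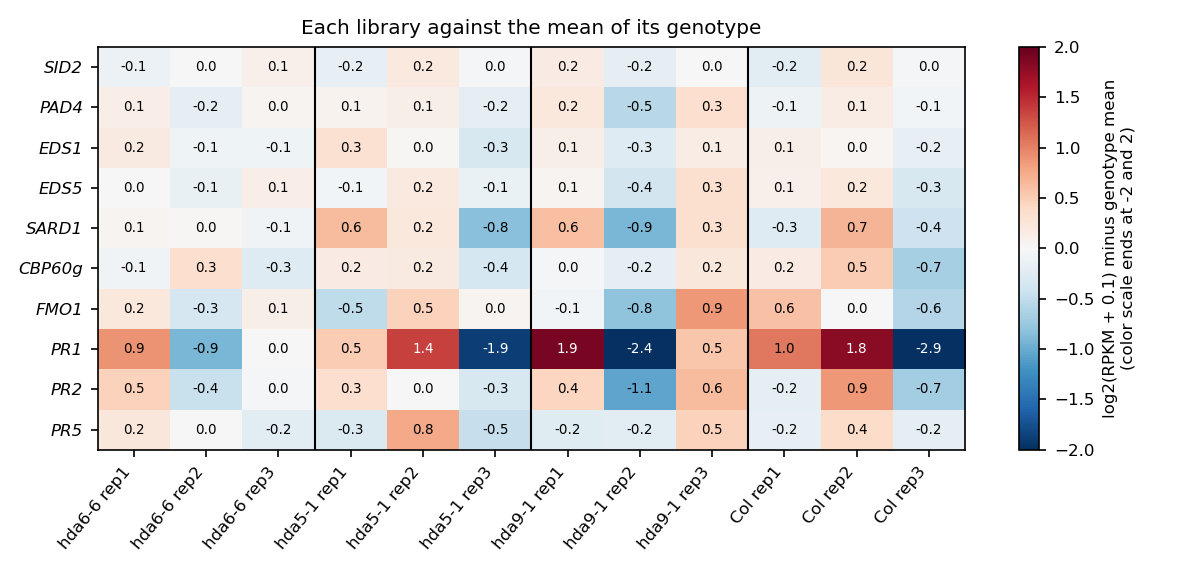
Deviation of each library from the mean of its genotype, as log2(RPKM + 0.1), for the 10 members (rows) in the 12 libraries of genotypes with 3 (columns). hda9-1 replicate 2 and Col replicate 3 are low for nearly all members, Col replicate 2 is high, and PR1 has the widest spread.

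The 3 deacetylase mutants were also compared directly, without using the Col libraries as the reference. Set against hda5-1, hda6-6 had 0 members called higher, against 3.68% of all genes, and 3 called lower, against 1.67%. SARD1 was 0.248 of the hda5-1 level (log2 fold change -2.01, SE 0.44, adjusted p = 0.00929), PR5 0.315 (-1.67, SE 0.30, adjusted p = 0.00287) and SID2 0.387 (-1.37, SE 0.15, adjusted p = 8.03e-05, limma). These genes and EDS1 were lower in every hda6-6 library than in any hda5-1 library, CBP60g was higher, and the other members overlapped. Neither EDS1 nor CBP60g was called, and the share of all genes without overlap was not worked out. SARD1 was thus higher in both mutants than in Col but differed between them, whereas FMO1, at 0.10 (SE 0.40, 95% interval -0.78 to 0.98), gave no call between them.

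Set against hda9-1, hda6-6 had 1 member called higher, CBP60g, against 6.15% of all genes, and 1 called lower, PR5, against 1.79%. CBP60g was 2.1-fold higher (log2 fold change 1.07, SE 0.27, adjusted p = 0.0129), a call lost without hda6-6 replicate 2 (0.91), without hda9-1 replicate 2 (0.97) and with a pseudocount of 1 (0.96). PR5 was 0.36 of the hda9-1 level (-1.48, SE 0.30, adjusted p = 0.00384, limma). PAD4 stood at 0.97 (SE 0.20, adjusted p = 0.00421), short of 2-fold. It passed 2-fold with median-of-ratios scaling (1.04), without hda6-6 replicate 2 (1.06), without hda9-1 replicate 1 (1.07) and without hda9-1 replicate 3 (1.14). SID2 was low in both mutants, with a difference of 0.13 (95% interval -0.20 to 0.47).

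Set against hda9-1, hda5-1 had 4 members called higher, against 4.27% of all genes, and 0 were called lower, against 1.99%. SARD1 was 5.23-fold higher (log2 fold change 2.39, SE 0.44, adjusted p = 0.00266), SID2 2.83-fold (1.50, SE 0.15, adjusted p = 6.93e-05), PAD4 2.43-fold (1.28, SE 0.20, adjusted p = 0.00102) and EDS1 2.38-fold (1.25, SE 0.16, adjusted p = 0.000327, limma). All 4 calls held under each of the 25 alternatives. For FMO1 (0.23, 95% interval -0.65 to 1.11), EDS5 (0.35, -0.08 to 0.77) and CBP60g (0.51, -0.08 to 1.1) no difference was called.

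Other genes of the pathway were taken from lists by function, and their counts are read against the shares of all genes called. Of 15 tested genes for synthesis and turnover of salicylic acid, 1 was called higher and 1 lower than Col in hda6-6, 2 higher in hda5-1, 1 lower in hda9-1, 2 lower in fve-4, and 0 in either direction in fld-6. Of all genes tested, the shares were 7.95% higher and 4.96% lower in hda6-6, 5.51% higher in hda5-1, 3.75% lower in hda9-1 and 3.98% lower in fve-4, and the list's counts in hda6-6 were near them. PBS3, which conjugates isochorismate with glutamate in the step after EDS5, had 2.89, 6.95 and 3.96 RPKM in hda5-1 and 0.52 RPKM in fve-4, against 1.63, 2.25 and 1.79 RPKM in Col. It lay above Col in hda5-1 and below it in fve-4, as SID2 did, with log2 fold changes of 1.16 (adjusted p = 0.042) and -1.67 (adjusted p = 0.0445, limma). In hda6-6 and hda9-1, where SID2 lay below Col, PBS3 overlapped Col, at 1.70 to 2.32 and 1.17 to 3.77 RPKM. ICS2, the minor isochorismate synthase, fell by 1.33 on the log2 scale in fve-4 (adjusted p = 0.0131). UGT76B1, a glucosyltransferase of salicylic acid and related compounds, rose in hda6-6 (1.54) and hda5-1 (1.38). MES9, which hydrolyzes methyl salicylate, fell by 1.13 in hda6-6 and by 1.29 in hda9-1.

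Of 7 genes for partners of EDS1 and helper receptors, 2 were called higher in hda6-6, 3 higher in hda5-1, 1 lower in hda9-1, and 1 higher and 1 lower in fve-4. Of all genes, 7.95% were called higher in hda6-6, 5.51% higher in hda5-1, 3.75% lower in hda9-1, and 3.9% higher and 3.98% lower in fve-4. SAG101, the other partner of EDS1, had 10.1, 9.65 and 9.24 RPKM in hda6-6 and 9.28, 10.9 and 9.37 RPKM in hda5-1, against 5.22, 5.64 and 3.48 RPKM in Col. Both mutants lay above Col in all libraries, at log2 fold changes of 1.03 and 1.05. The helper receptor gene ADR1 rose in hda6-6 (1.56), hda5-1 (1.54) and fve-4 (1.18). NDR1, needed by many coiled-coil immune receptors, was called lower in hda9-1 and fve-4, as was PAD4. It had 4.64, 2.42 and 3.94 RPKM in hda9-1 and 3.09 RPKM in fve-4, against 7.32, 11.9 and 7.28 RPKM in Col. These values lay below Col, with log2 fold changes of -1.26 in hda9-1 and -1.45 in fve-4, whereas in hda5-1 NDR1 rose by 1.02.

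Among 14 genes for perception of salicylic acid and partners of the receptor NPR1, 1 was called higher in each of hda6-6, hda5-1 and hda9-1, and 1 higher and 1 lower in fve-4. Over all genes, 7.95% were called higher in hda6-6, 5.51% in hda5-1, 2.1% in hda9-1 and 3.9% in fve-4, with 3.98% lower in fve-4, and 1 of 14 genes in hda6-6 is near that background. NIMIN2, which encodes a small protein that binds NPR1, was the gene called in all 4 mutants. It had 6.37, 4.62 and 5.43 RPKM in hda6-6, 8.88, 8.28 and 4.75 RPKM in hda5-1, 4.09, 2.85 and 3.29 RPKM in hda9-1 and 0.562 RPKM in fve-4, against 1.27, 2.17 and 1.12 RPKM in Col. All libraries of the 3 deacetylase mutants lay above Col and the fve-4 library below, with log2 fold changes of 1.83, 2.20, 1.16 and -1.24 in that order. TRXH5, a thioredoxin that acts on NPR1, rose in fve-4 (1.40).

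Of 13 genes that respond to salicylic acid, 4 were called higher in hda6-6, 5 in hda5-1, 2 in hda9-1, 0 in fve-4 and 1 in fld-6. No mutant had a gene of this list called lower. The shares of all genes called higher were 7.95%, 5.51%, 2.1%, 3.9% and 0.677% in the same order. NUDT7, a hydrolase that restrains EDS1 signaling, had 120, 109 and 96.3 RPKM in hda6-6, 220, 140 and 135 RPKM in hda5-1 and 48.3 RPKM in fld-6, against 19.9, 18.1 and 17.0 RPKM in Col. The mutant libraries were far above Col, with log2 fold changes of 2.56 in hda6-6 and 3.13 in hda5-1 and 1.40 in fld-6. Its relative NUDT6 rose in hda6-6 (1.54) and hda5-1 (1.15), and so did WRKY51 (1.54 and 1.52), which encodes a WRKY factor. ACD6, a membrane protein that amplifies salicylic acid signaling, rose in hda5-1 (2.40, adjusted p = 0.0426, limma), at 16.4 to 35.7 RPKM in hda5-1, against 1.43 to 13.7 RPKM in Col.

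The medians of these lists may be read against those of all genes given above. The responsive genes had a median log2 fold change of 0.75 in hda6-6, 1.15 in hda5-1, 0.68 in hda9-1, -0.37 in fve-4 and -0.18 in fld-6. For partners of EDS1 and helper receptors it was 0.73, 0.96, 0.13, -0.08 and -0.11 in the same order of mutants. For perception it was between -0.05 (fve-4) and 0.35 (hda5-1), and for synthesis and turnover between -0.39 (fve-4) and 0.14 (hda5-1). All 4 lists had their highest median in hda5-1.

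Among 12 transcription factor genes reported to act on SID2, 1 was called lower in each of hda6-6, hda9-1 and fve-4, and 2 were called higher and 1 lower in hda5-1. Of all genes, 4.96%, 3.75% and 3.98% were called lower in hda6-6, hda9-1 and fve-4, and 5.51% higher and 3.94% lower in hda5-1. The list's median was between 0.02 (fve-4) and 0.32 (fld-6). ANAC019, a repressor of SID2, had 2.36, 2.98 and 2.85 RPKM in hda6-6, 2.68, 5.81 and 4.92 RPKM in hda5-1 and 3.72 RPKM in fve-4, against 10.3, 13.7 and 10.7 RPKM in Col. It was low in all these libraries (log2 fold changes -2.04, -1.41 and -1.60). In hda9-1 ANAC019 was below Col without a call, at 5.51, 5.70 and 6.90 RPKM, and in fld-6 above Col, at 15.1 RPKM. SID2 was low in hda6-6, hda9-1 and fve-4 and high in hda5-1, and a link between ANAC019 and SID2 was not tested. ANAC055, of the same NAC group, fell by 1.2 on the log2 scale in hda9-1. TCP9, an activator, rose in hda5-1 (1.56), and so did CAMTA3, a calmodulin-binding repressor (1.14).

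Of 5 genes for pipecolate synthesis and systemic resistance, SARD4, which makes pipecolic acid, rose in hda5-1 (1.15) and DIR1, a lipid transfer protein, fell by 1.04 on the log2 scale in hda6-6, and the other mutants had no call. Of all genes, 5.51% were called higher in hda5-1 and 4.96% lower in hda6-6. The list's median was between -0.68 (fve-4) and 1.15 (hda5-1). Among close relatives of the PR genes, PR-1-LIKE rose in hda6-6 (2.08), BG3 fell by 1.43 in hda9-1, where it was at 0.045 to 0.220 RPKM, against 0.379 to 0.752 RPKM in Col, and PRB1 was not called. Of 10 genes of the jasmonate and ethylene defense branches, which often oppose salicylic acid, 2 were called higher and 1 lower in hda5-1, 1 lower in fve-4 and 0 in hda6-6, hda9-1 and fld-6, against 5.51% higher and 3.94% lower of all genes in hda5-1 and 3.98% lower in fve-4, with medians between 0.17 (hda9-1) and 0.82 (hda5-1 and fve-4). PDF1.2c rose in hda5-1 (4.31, SE 1.07, adjusted p = 0.0105, limma), where it had 5.19, 26.0 and 12.8 RPKM, against 0.107, 1.98 and 0.439 RPKM in Col. VSP1 fell by 1.28 in hda5-1 and VSP2 by 1.66 in fve-4.

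**Figure D4:**
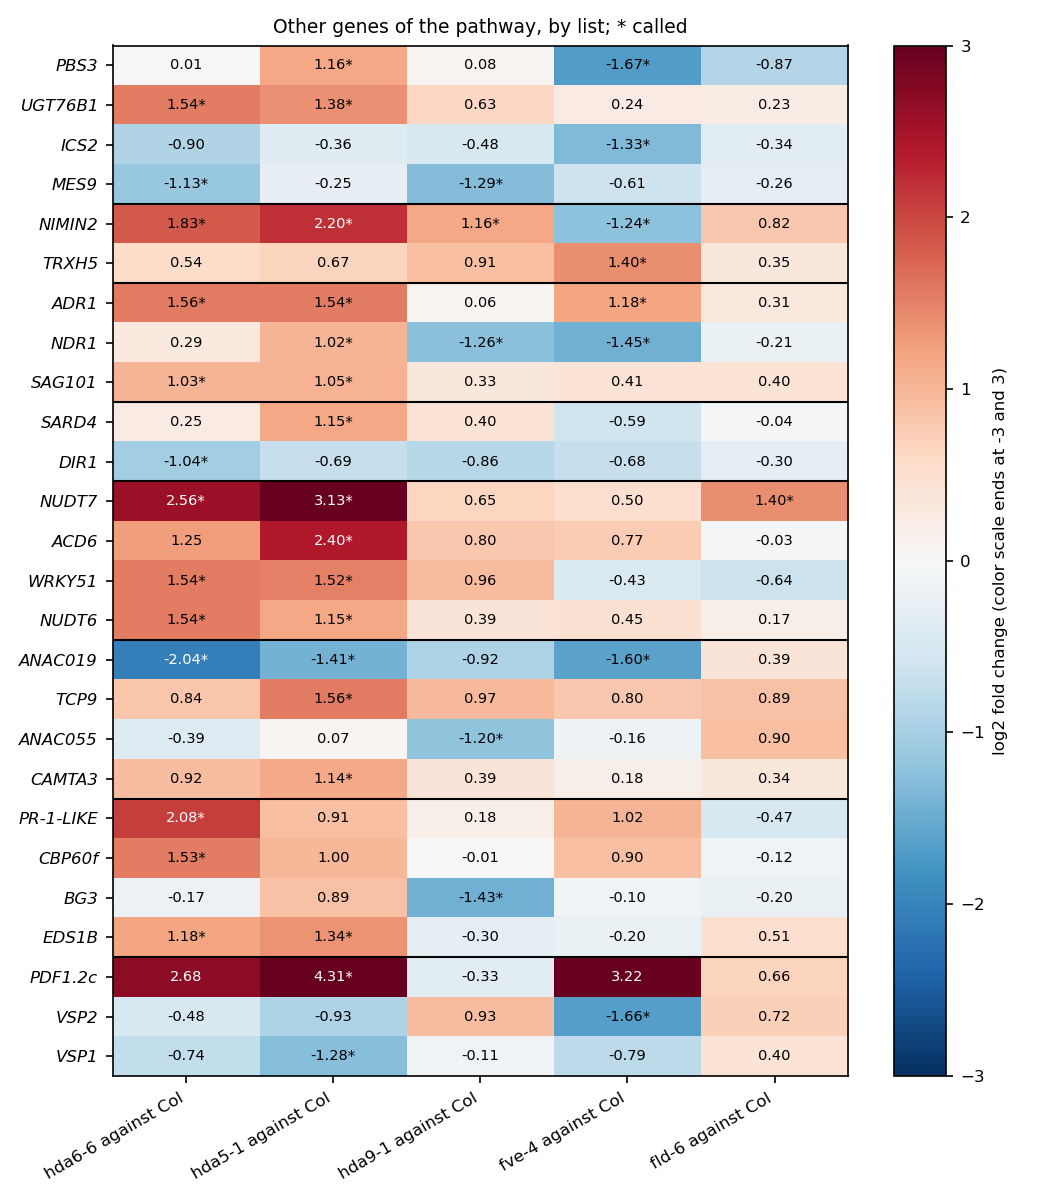
log2 fold change against Col (color and printed value) of the listed pathway genes named in the text (rows, in blocks by list) in the 5 mutants (columns); asterisks mark calls. NUDT7 is at 2.56 and 3.13 in hda6-6 and hda5-1, and NIMIN2 is positive in the 3 deacetylase mutants and negative in fve-4.

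The genes whose pattern was most like a member were taken as the 3 with the highest Pearson r of log2(RPKM + 0.1) over the 14 libraries, among 17969 genes with a mean RPKM of at least 1. This likeness is a description, since libraries of 1 genotype are alike in many genes. For PR1 they were LURP1 (r = 0.841, 0.42 to 15.9 RPKM), which lies close to PR1 on chromosome 2, PES2 (r = 0.836) and AT4G26060 (r = 0.828). For PR2 they were AT5G10760 (AED1, r = 0.891, 0.624 to 8.17 RPKM), MGT1 (r = 0.863) and LECRKA4.1 (r = 0.862). LURP1 was already on the list of genes that respond to salicylic acid, and AED1 on that for pipecolate synthesis and systemic resistance. For PR5 they were AT1G30470 (r = 0.924), the receptor-like protein gene RLP54 (r = 0.901) and AARE (r = 0.894). For SID2 they were AT1G73760 (r = 0.964, 11.7 to 35.2 RPKM), AT5G24640 (r = 0.948) and OPR1 (r = 0.940). The r values for SID2 were above those for PR1, whose own level was the most variable.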

How the data were processed

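Poly(A) RNA of whole 14-day seedlings was sequenced in 14 libraries. Per the labels and the study's methods, the authors called bases with CASAVA 1.8, aligned them to TAIR10 with Bowtie2, whose version is not given in the sources used here, and deposited RPKM per gene and library, computed with RackJ, 1 table per library. No scaling between libraries is stated, and the values are not counts, so no count test was run.

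log2(RPKM + 0.1) of 23187 genes, those over 0.1 RPKM in 3 or more libraries, was fitted with limma 3.58.1 in R 4.3.3 (genotype only, all libraries, empirical Bayes with an intensity trend, 8 residual and 3.83 prior degrees of freedom). p-values were two-sided and adjusted by Benjamini-Hochberg within each of 8 comparisons, in place of the study's Student test on RPKM. Exact tests were not used for single genes, since 3 against 3 cannot go below p = 0.1. Mapped reads were worked out from the size of the steps among low values, of which 29.3 to 42.7% came out whole per library.

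Genes and coordinates are from RefSeq on TAIR10.1, and the authors' gene models may differ. Windows hold no transcribed base of the gene's own annotation. The members and the lists were chosen with earlier results of these data known. Named were all members, close relatives and mutated genes, and of each other list at most the 4 called genes with the largest change against Col and a mean RPKM of at least 1 in some genotype. Alternatives varied the pseudocount, the filter on low values, scaling, the variance model, the call rule, the replicate block and the libraries used. Leaving out Col replicate 2 and hda9-1 replicate 2 together was chosen after seeing the data.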

Additional observations from a re-analysis of the deposited data

How the results depend on the processing

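Over 1960 values of a member under an alternative, 19 lost a call, 32 gained one and 0 reversed a called direction. The alternatives moved the number of members called as follows. Without the 2-fold threshold it was 5 in hda6-6 (2 with it), 5 in hda5-1 (3 with it), 3 in hda9-1 (1 with it) and 4 in hda6-6 against hda9-1 (2 with it). With a pseudocount of 1 it was 0 in hda9-1, 1 in fve-4 and 1 in hda6-6 against hda9-1. In hda9-1 it was 2 with a mean RPKM of at least 1, with median-of-ratios scaling and with trimmed-mean scaling. Leaving out 1 replicate gave 1 to 3 members in hda9-1 against Col, and at the lowest 1 in hda6-6 against Col (without Col replicate 3), 1 in fve-4 (without Col replicate 2) and 1 in hda6-6 against hda9-1 (without hda9-1 replicate 2). Leaving out both Col replicate 2 and hda9-1 replicate 2, chosen after seeing the data, gave 2 in hda9-1 (SARD1 and FMO1 higher, PAD4 no longer called), 1 in fve-4 and 1 in hda6-6 against hda9-1. PR5 in hda6-6 against hda5-1 was lost only under the study's rule, an unadjusted p and a 2-fold change on RPKM. For these changes the cause was not tested.

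The design of the main fit did not take the replicate numbers to pair the libraries. For same-numbered libraries of different genotypes, correlations of deviations ran from -0.09 to 0.314, over 0.1 in 9 of 18 pairs. Other-numbered pairs ran from -0.289 to 0.356, over 0.1 in 7 of 36. Whether same-numbered libraries share an effect was not tested. The replicate 1 libraries alone were over 0.1 in all pairs (0.135 to 0.314). With the replicate number as a block, fve-4 kept 1 call of 2 (SID2 at -1.0 was lost), and the counts of members called moved by no more than 1.5 times elsewhere. In fve-4 the median of all genes was 0.19 on the log2 scale and 0 or 0.02 after scaling. The share of calls that were higher was there 49.5% as deposited, against 25.5% (431 higher, 1259 lower) and 27.9% (467 higher, 1204 lower) after median-of-ratios and trimmed-mean scaling, and PAD4 and SID2 stayed lower. PR1 was at 0 to 121 estimated reads, with a spread within genotypes of 1.93 on the log2 scale, and the part of depth in that spread was not tested.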
